A study of Mus musculus with 14 samples.

Results

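The genes described here are the mouse chemokines, the interleukins and the interleukin receptors. They were taken by name: every protein-coding gene whose symbol starts with Ccl, Cxcl or Il followed by a digit, or with Cx3cl. The rule itself uses no measured value, but it was set with earlier results of these data known. The rule found 127 gene identifiers with 119 symbols, of 49671 genes in the table. By role these were 30 CC chemokines, 12 CXC chemokines, the CX3C chemokine Cx3cl1, 38 interleukin ligands, 5 inhibitors or decoys, 40 receptor chains, and the enzyme Il4i1, an amino acid oxidase that only shares the name. Of the 127, 29 had no count in any of the 14 libraries, 51 had counts but fell under the low-count filter, with at most 50 counts summed over the libraries, and 47 were tested. A member that passed the filter only through the group where it was high had to differ between groups, so counts over the 47 do not describe all members. Il11ra2, Ccl27a and 4 other symbols stood under 14 identifiers of near-identical copies, none of them tested, and the 3 copies of Il11ra2 held 17 counts each.

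The cells were C2C12, an immortalized mouse myoblast line that fuses into myotubes when serum is withdrawn. Growing cells were sampled at day 0 in DMEM with 20% fetal calf serum (FCS). The rest were sampled after 2 or 7 days in DM1 (DMEM with 2% of the serum the labels abbreviate HS), in DM2 (DMEM with 10% FCS and a cocktail of 1 µg/ml insulin, 0.5 mM 3-isobutyl-1-methylxanthine, 0.5 µM dexamethasone and 2 µM rosiglitazone), or in DM3 (DMEM with 2% HS and the same cocktail). DM1 is the usual medium for muscle, DM2 one for fat, and DM3 joins both. Each of the 7 groups held 2 libraries of poly(A) RNA from this single line, and the labels do not say that the 2 are separate cultures, so a p-value here measures spread between libraries that may be technical only. DM3 and DM1 share the serum and differ by the cocktail. DM3 and DM2 share the cocktail and differ in the kind and the amount of serum, which cannot be told apart. All 6 comparisons against day 0 use the same 2 day 0 libraries.

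Chemokines are small secreted proteins that attract cells along a gradient by binding receptors of the G-protein-coupled class. Interleukins signal through receptor chains that are often shared: gp130 (Il6st) serves the interleukin-6 family and acts through JAK kinases and STAT factors, the common gamma chain (Il2rg) serves interleukins 2, 4, 7, 9, 15 and 21, and receptors of the interleukin-1 and interleukin-17 families act largely through NF-kappaB. Muscle cells themselves make several of them, and interleukin-6 and interleukin-15 are known as myokines, signals released by muscle.

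NF-kappaB is a textbook activator of Il6 and of several chemokine genes, so the bases before the start sites are shown here for 3 members that hold its motif, beside Il33, the ligand with the largest rise in level, which holds none. The windows are the 250 bases before the RefSeq start (GRCm38.p6), written 5′ to 3′ on the strand of the gene. Capitals mark matches, on either strand, to the NF-kappaB motif (the runs of 10 capitals), TGANTCA (AP-1) or CAGCTG (E-box).
Il6, chr5:30012864-30013113, plus strand: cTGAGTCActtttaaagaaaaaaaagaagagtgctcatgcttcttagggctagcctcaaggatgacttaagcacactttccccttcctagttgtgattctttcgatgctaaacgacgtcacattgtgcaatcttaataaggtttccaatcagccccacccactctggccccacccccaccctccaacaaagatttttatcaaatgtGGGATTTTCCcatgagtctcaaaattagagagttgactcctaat
Cxcl1, chr5:90890995-90891244, plus strand: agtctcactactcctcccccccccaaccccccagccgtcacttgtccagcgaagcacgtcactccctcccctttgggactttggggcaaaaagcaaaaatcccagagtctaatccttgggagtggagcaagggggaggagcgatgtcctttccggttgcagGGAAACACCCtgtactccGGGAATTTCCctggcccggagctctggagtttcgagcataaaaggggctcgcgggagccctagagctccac
Ccl9, chr11:83578637-83578886, minus strand: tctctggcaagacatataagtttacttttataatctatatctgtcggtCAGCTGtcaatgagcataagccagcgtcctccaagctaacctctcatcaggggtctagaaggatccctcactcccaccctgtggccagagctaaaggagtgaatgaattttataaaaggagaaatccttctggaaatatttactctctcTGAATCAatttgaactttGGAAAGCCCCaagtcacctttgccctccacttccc
Il33, first of 2 start sites, chr19:29924863-29925112, plus strand: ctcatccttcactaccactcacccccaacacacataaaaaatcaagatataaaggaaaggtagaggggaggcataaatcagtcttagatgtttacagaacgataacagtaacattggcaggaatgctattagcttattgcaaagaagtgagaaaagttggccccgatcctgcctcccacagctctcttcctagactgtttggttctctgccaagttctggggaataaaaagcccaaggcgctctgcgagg

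The NF-kappaB match of Il6 begins at base -44 from the start, that of Ccl9 at -35, and the 2 of Cxcl1 at -89 and -71. Of the 47 tested genes 35 had a RefSeq window, 45 windows in all. The NF-kappaB letters were found in 5 genes (Ccl9, Cxcl1, Il17rc, Il1rn and Il6). These were 11.1% of the 45 windows, beside 1.41% of all 32851 windows of this length. TGANTCA was in 6 genes (13.3% of the 45 windows, 6.75% of all) and CAGCTG in 8 (17.8 and 13%). The STAT motif TTCNNNGAA was in 1 (2.22 and 7.02%) and the cAMP motif TGACGTCA in 0 (0 and 1.55%). A match is a description of the letters and shows no binding. The 5 genes with the NF-kappaB letters did not move alike: in DM3 at day 7 against day 0, Il6 stood at log2 5.92 ± 0.35, Ccl9 at 2.91 ± 0.23, Il17rc at 2.33 ± 0.12 and Cxcl1 at 0.82 ± 0.22 (± SE), all called higher, while Il1rn, at -0.52 ± 0.28, was not called (edgeR adjusted p = 0.13). Without day 0 replicate 2, Cxcl1 was not called (edgeR adjusted p = 0.0575).

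The libraries held 21907617 to 29784885 expected counts and 17779 to 21166 genes with a count. Processed pseudogenes took less of the counts in 1 library than in its partner in 3 groups: day 0 (1.28 against 2.51%), DM1 at day 2 (1.29 against 2.14%) and DM3 at day 2 (0.584 against 2.34%). Levels below are CPM, counts per 1e+06 of the TMM-scaled library, given for replicate 1 and then replicate 2. The labelled cell type was checked on markers. Of 16 leukocyte markers only Cd68 and Cd14 passed the filter. Ptprc, carried by nearly all leukocytes, stayed at or below 0.042 CPM, and Adgre1, Mpo and Ncr1 were at 0. The 16 summed to 6.19 to 14.3 CPM in a library, highest in DM2 at day 7. The summed muscle markers stood at 972 to 1129 CPM at day 0. At day 7 they stood at 1905 to 2107 CPM in DM1, 946.5 to 1020 CPM in DM2 and 19270 to 20200 CPM in DM3. A sum is set by the most abundant markers and hides the others. Of 7 tested muscle markers, day 7 found 6 higher and 1 lower than day 0 in DM1 (all genes 27.7 and 25.8%). In DM2 they were 5 and 2 (24.5 and 30.9%), and in DM3 6 and 1 (28.9 and 30.1%). The median log2 fold changes of these markers were 4.70, 4.15 and 9.18. Adipocyte markers summed to 0.113 to 4.97 CPM in the other groups and to 7.94 to 9.41 CPM in DM2 at day 7. Their part in the results was not tested.

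Against day 0, members rose and fell in each medium. In the cocktail media the falls were mostly of receptor chains, which were also the largest role, with 21 of the 47 tested members. Of 21 tested receptor chains, day 7 found 10 higher and 2 lower in DM1, 6 and 9 in DM2, and 8 and 11 in DM3. Of 11 tested chemokines it found 9 higher and 1 lower in DM1, 8 and 3 in DM2, and 5 and 3 in DM3. Of 11 tested interleukin ligands it found 6 higher and 1 lower in DM1, 5 and 3 in DM2, and 5 and 3 in DM3. In DM1 at day 2, 20 of 47 members were higher and 1 lower at an adjusted p under 0.05 (edgeR's quasi-likelihood test, Benjamini-Hochberg over all 15973 tested genes), against 15.2% of all tested genes called higher and 14.6% lower (29.7% either way). In DM1 at day 7, 27 were higher and 4 lower (all genes 27.7 and 25.8%, 53.5% either way). In DM2, 17 were higher and 14 lower at day 2 (all genes 23.5 and 26.2%, 49.7% either way), and 19 and 16 at day 7 (24.5 and 30.9%, 55.4% either way; 17.7 and 40.7% under library totals alone, where the members were 18 and 20). In DM3, 18 were higher and 17 lower at day 2 (25.5 and 25.4%, 50.9% either way), and 19 and 18 at day 7 (28.9 and 30.1%, 59% either way; 22.4 and 38.2% under library totals alone, members 18 and 21). Library totals alone moved the median log2 fold change of all genes by -0.23 in DM2 and by -0.21 in DM3 at day 7 against day 0, so the changes here are relative to the TMM scale. In these bulk samples fewer cells of a type and less RNA per cell cannot be told apart.

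In DM1 the calls were mostly rises, and in DM2 and DM3 they went both ways. The median log2 fold change of the members was 0.74 in DM1 at day 7, beside 0.06 over all tested genes, and 0.25 in DM3, beside 0.03. Their median absolute log2 fold change against day 0 was 0.51 in DM1 at day 2 and 2.03 in DM3 at day 7, beside 0.32 and 0.70 over all tested genes. Of the 47, 5 were called higher in all 6 comparisons with day 0 (Ccl9, Cxcl13, Il6, Il6ra and Il11ra1), 0 were lower in all 6, and 13 were higher in at least 1 and lower in another. Il33 was one of the 13. Matching counts over all tested genes were not taken. All 6 comparisons share the day 0 libraries, so these counts do not set the members apart. Of the 6 calls of Il11ra1, all but that in DM1 at day 7 were lost without day 0 replicate 2 (edgeR adjusted p = 0.054 to 0.217), and that in DM3 at day 2 was furthest from the threshold without DM3 replicate 2 (0.367).

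**Figure D1:**
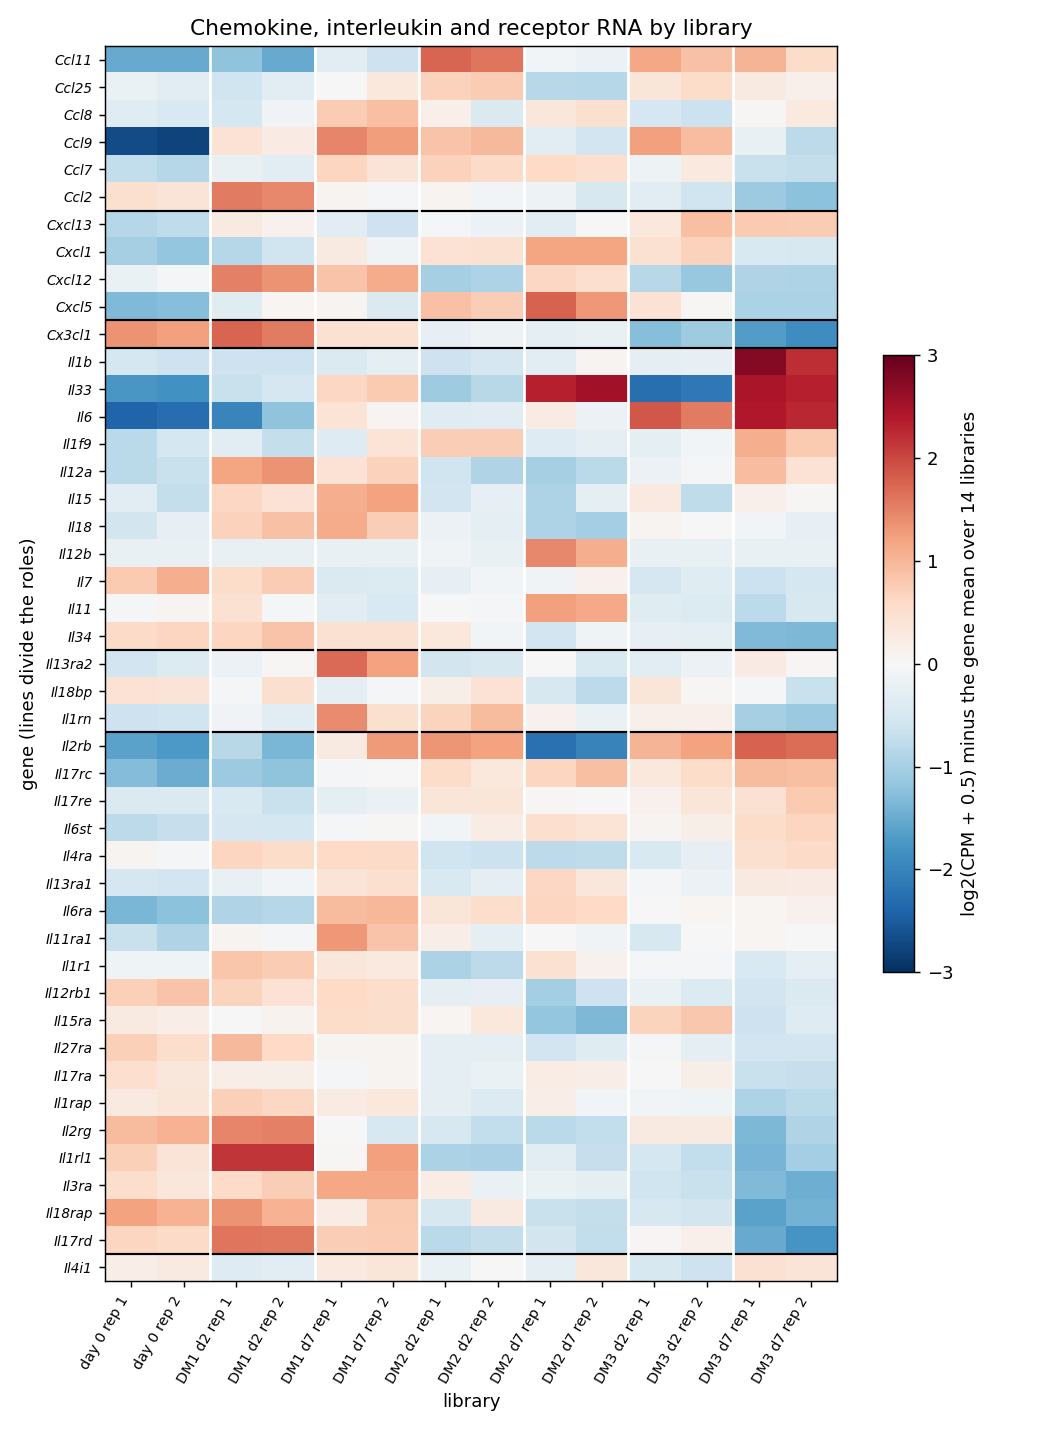
Level of the 45 members named by rule in each of the 14 libraries, as log2(CPM + 0.5) minus the mean of the gene over the libraries (red, above; blue, below). Rows are ordered by role and, within it, by the level in DM3 at day 7. Il33 and Il6 are red in both DM3 libraries of day 7, and Il17rd, Il18rap and Cx3cl1 are blue there.

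**Figure D2:**
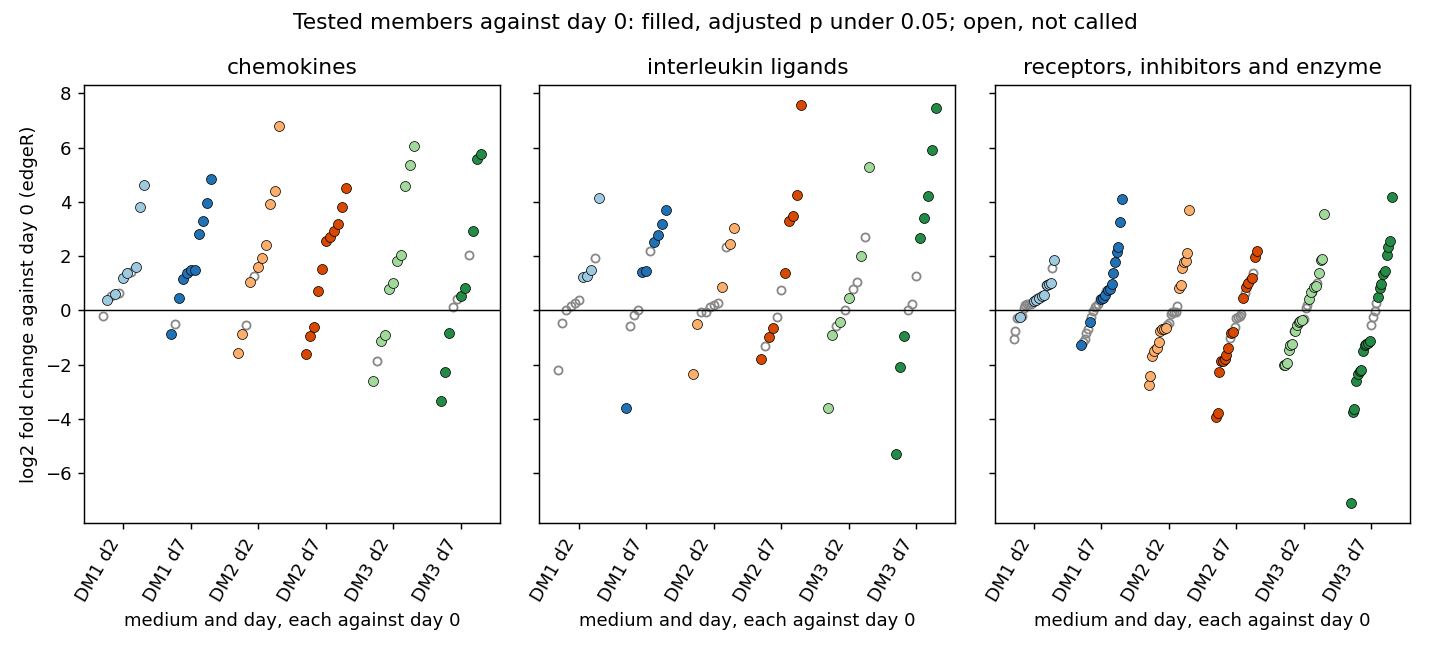
Log2 fold change of each tested member in each medium and day against day 0, by role. Filled points passed an adjusted p under 0.05 (edgeR) and open points did not; at DM3 day 7 the receptors, inhibitors and enzyme spread to both sides of 0. Points far from 0 can rest on a day 0 or day 7 group with 0 to 3 counts.

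Among CC chemokines, Ccl9, also called MIP-1 gamma and an attractant of myeloid cells, rose in each medium. It stood at 0.698 and 0.613 CPM at day 0, at 9.87 and 8.51 (day 2) and 20.5 and 17.7 (day 7) in DM1, at 13.4 and 14.4 (day 2) and 5.5 and 4.59 (day 7) in DM2, and at 17.5 and 14 (day 2) and 6 and 3.94 (day 7) in DM3. No library of a differentiation medium came near day 0. It lay 29-fold above day 0 in DM1 at day 7 (edgeR adjusted p = 8.95e-09) and 7.54-fold in DM3 (edgeR adjusted p = 3.59e-07). With time it went on rising in DM1, 2.08-fold from day 2 to day 7, and came down 2.76-fold in DM2 and 3.17-fold in DM3 (edgeR adjusted p = 0.000983, 4.55e-05 and 2.44e-05).

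Ccl2, Ccl7, Ccl11 and Ccl8 lie in this order on mouse chromosome 11 (GRCm38, chr11:82035571-82116799), and they did not move together. Ccl2 (MCP-1), the main attractant of monocytes, was highest in DM1 at day 2, with 6.34 and 5.78 CPM against 2.76 and 2.52 at day 0, and lowest in DM3 at day 7, with 0.592 and 0.493. It rose 2.29-fold in the former (edgeR adjusted p = 0.00227) and fell 4.83-fold in the latter (edgeR adjusted p = 1.11e-05). Ccl7 (MCP-3), which starts 10.1 kb further on, stood at 2.3 and 2.08 CPM at day 0. It was at 6.77 and 5.55 in DM1 at day 7, at 7.01 and 6.37 (day 2) and 6.51 and 6.15 (day 7) in DM2, and back at 2.41 and 2.34 in DM3 at day 7. Its rises in DM1 at day 7 and in DM2 at day 2 and day 7 were 2.81-, 3.05- and 2.89-fold (edgeR adjusted p = 3.51e-05, 2.54e-05 and 2.51e-05), and in DM3 at day 7 it was not called (log2 0.12 ± 0.20, edgeR adjusted p = 0.634).

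Ccl11 (eotaxin), an attractant of eosinophils that starts 22.3 kb from Ccl2, had 1 count in each day 0 library. It stood at 0.168 and 0.0375 CPM in DM1 at day 2 and 0.713 and 0.501 at day 7, at 4.65 and 4.16 (day 2) and 0.941 and 0.856 (day 7) in DM2, and at 2.91 and 2.33 (day 2) and 2.58 and 1.72 (day 7) in DM3. The DM2 and DM3 libraries of day 2 lay above all DM1 libraries. Against day 0 the rise was 128-fold (95% counting interval 34.9 to 1060) in DM2 and 75-fold (95% counting interval 20.4 to 626) in DM3 at day 2 (edgeR adjusted p = 8.95e-07 and 1.74e-06). At day 2 it was 25-fold higher in DM3 than in DM1 (edgeR adjusted p = 1.32e-05), 61.8-fold without DM1 replicate 1 and 15.2-fold without replicate 2. Ccl8 (MCP-2), 79.6 kb from Ccl2, stayed at or below 0.96 CPM, its highest values being 0.82 and 0.96 CPM in DM1 at day 7, against 0.105 and 0.0681 at day 0 (9.81-fold, edgeR adjusted p = 0.00419). Ccl12 and Ccl1, which lie 66.3 and 141.1 kb from Ccl2, were at 0 in all libraries.

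**Figure D3:**
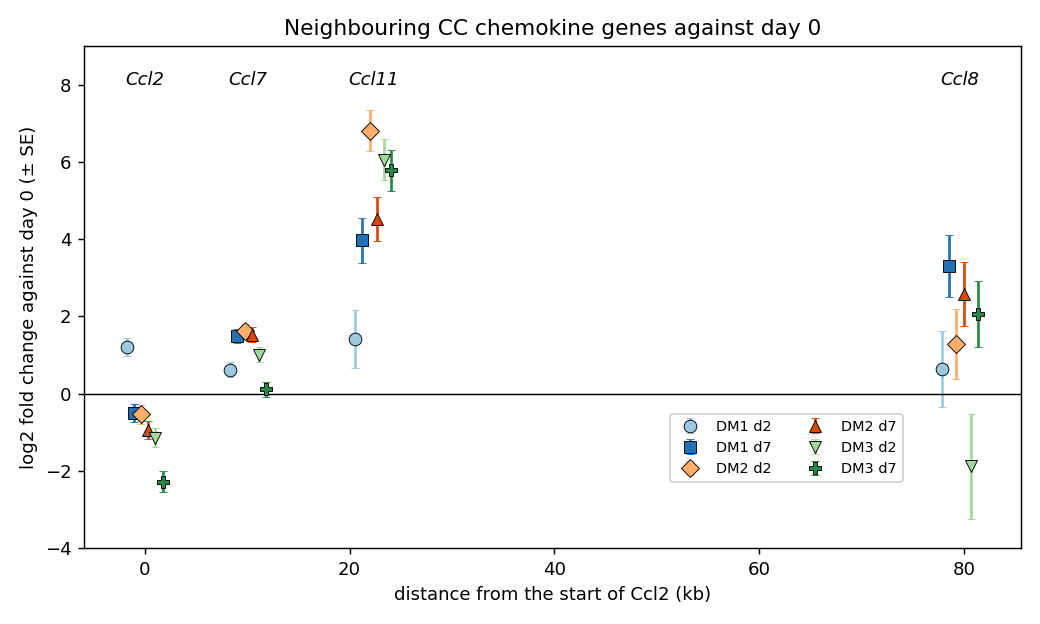
Log2 fold change against day 0 (± SE, edgeR fit) of 4 neighbouring CC chemokine genes, placed by the distance of their start from that of Ccl2 in kb (points of 1 gene are set apart for legibility). Ccl11 lies above 0 in each group while Ccl2 lies below 0 in 5 of 6. Ccl11 had 1 count in each day 0 library, and Ccl8 had 1 count over both DM3 day 2 libraries, so their fitted values are loose.

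Ccl25, known from thymus and gut, changed less. It was highest in DM2 at day 2, at 12.6 and 13.2 CPM against 6.56 and 5.83 at day 0 (2.09-fold, edgeR adjusted p = 9.30e-05), and lowest there at day 7, at 4.06 and 3.97. Of the 30 CC chemokine identifiers 15 had no count at all, and Ccl5, Ccl17, Ccl3 and Ccl4 were among the 9 with counts under the filter.

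The neutrophil attractants Cxcl5 (LIX) and Cxcl1 (KC) start 131.9 kb apart on chromosome 5, and both peaked in DM2 at day 7. Cxcl5 stood at 1.57 and 1.64 CPM at day 0, 4.99 and 3.34 at day 7 in DM1, 9.02 and 8.09 (day 2) and 17.1 and 12.3 (day 7) in DM2, and 6.43 and 4.8 (day 2) and 2.16 and 2.18 (day 7) in DM3. Its rise in DM2 at day 7 was 9.14-fold (edgeR adjusted p = 5.38e-07), and at day 7 DM3 lay 6.77-fold below DM2 (edgeR adjusted p = 1.81e-06). Cxcl1 went from 1.12 and 0.954 CPM at day 0 to 3.89 and 3.93 (day 2) and 6.85 and 6.85 (day 7) in DM2 and to 3.92 and 4.73 (day 2) and 1.86 and 1.81 (day 7) in DM3. It was 6.59-fold above day 0 in DM2 at day 7 (edgeR adjusted p = 6.45e-07) and 3.73-fold lower in DM3 than in DM2 on that day (edgeR adjusted p = 1.18e-05). Their neighbours Cxcl3, Cxcl15 and Cxcl2 held 4, 7 and 1 counts over the 14 libraries.

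Cxcl12 (SDF-1), the ligand of Cxcr4 that guides precursors in developing muscle, separated the media by their cocktail at day 2. Day 0 held 9.18 and 10.2 CPM. The libraries of day 2 held 31.1 and 27.7 in DM1, 5.09 and 5.38 in DM2 and 5.81 and 4.58 in DM3, and those of day 7 held 19.8 and 23.7 in DM1, 16.7 and 15.4 in DM2 and 5.5 and 5.38 in DM3. DM1 was the high group at both days, and DM2 moved up between them while DM3 stayed low. At day 2 Cxcl12 rose 3.04-fold in DM1 and fell 1.85-fold in DM2 and 1.87-fold in DM3 (edgeR adjusted p = 5.70e-06, 0.000201 and 0.00016), and DM3 lay 5.67-fold below DM1 (edgeR adjusted p = 1.45e-07). From day 2 to day 7 it rose 3.07-fold in DM2 (edgeR adjusted p = 1.23e-06).

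Cx3cl1 (fractalkine), a membrane-bound chemokine that can also be shed, fell in the cocktail media at both days. It was also called lower in DM1 at day 7, against day 0 and against DM1 at day 2. It stood at 20.3 and 18.6 CPM at day 0 and 27.2 and 23.7 in DM1 at day 2, then at 10.8 and 10.7 in DM1 at day 7, 6.37 and 6.83 (day 2) and 6.13 and 6.54 (day 7) in DM2, and 2.91 and 3.4 (day 2) and 2.07 and 1.77 (day 7) in DM3. The 3 media did not overlap at either day. It fell 10.1-fold from day 0 in DM3 at day 7 (edgeR adjusted p = 1.23e-09), where it also lay 3.3-fold below DM2 (edgeR adjusted p = 5.37e-07) and 5.59-fold below DM1 (edgeR adjusted p = 4.94e-08). Cxcl13, the attractant of B cells, had 0 and 1 counts at day 0 and reached 1.06 and 1.03 CPM in DM3 at day 7, a rise of 60.4-fold (95% counting interval 10.4 to 2434), with an edgeR adjusted p = 7.23e-05. The fitted fold was 26.9 without day 0 replicate 1 and 215 without replicate 2.

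**Figure D4:**
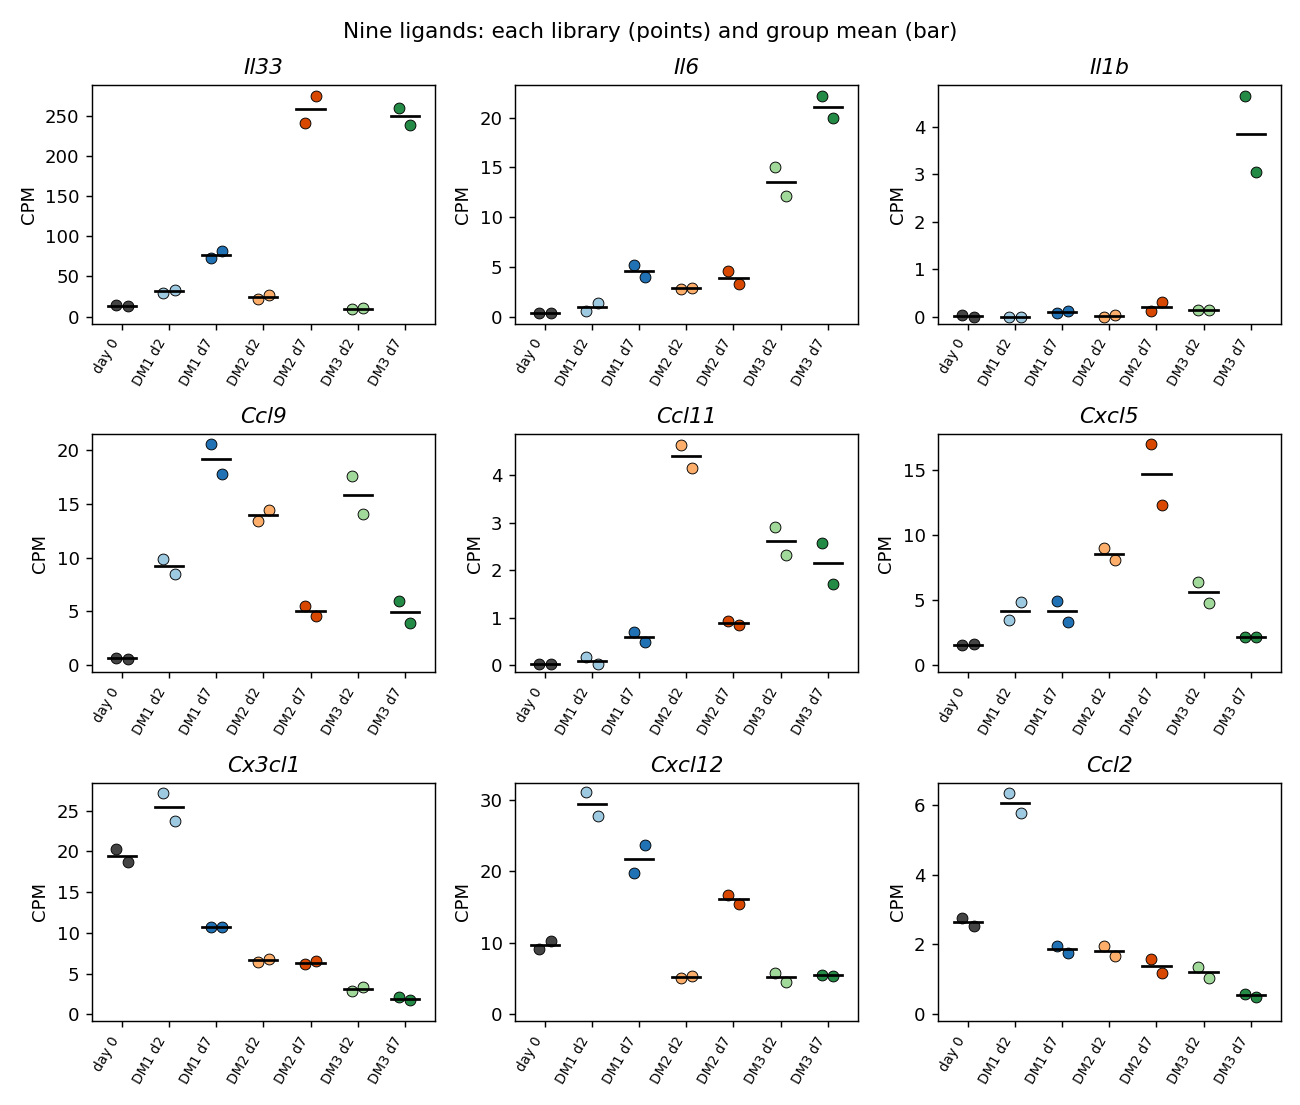
CPM of 9 ligands in each library (points) with the mean of the 2 libraries of a group (bars), on linear axes that differ between panels. Il33 is high in DM2 and DM3 at day 7, Il6 in DM3 at both days, Il1b in DM3 at day 7, Cxcl5 in DM2 at day 7, and Cx3cl1 is low in DM3 at both days.

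Of the receptors these chemokines act on, 5 of 23 listed genes passed the filter. Cxcr4, the receptor of Cxcl12, rose from 5.16 and 5.31 CPM at day 0 to 23.7 and 24.2 in DM2 and 17.4 and 16 in DM3 at day 2, and stood at 4.87 and 5.74 in DM1 then; it was 3.14-fold higher in DM3 than in DM1 (edgeR adjusted p = 8.60e-07), the reverse of its ligand. Ackr3, a scavenger of Cxcl12, was at 86.5 to 230 CPM in the 14 libraries, highest in DM3 at day 2. Ackr4, a scavenger of some CC chemokines, was at 0 in both day 0 libraries and reached 4.27 and 4.44 CPM in DM3 at day 7. Cxcr6 went the other way, from 0.628 and 0.715 CPM at day 0 to 0 in all 8 libraries of DM2 and DM3. Ccr2, the receptor of Ccl2, was at 0 throughout, and Cx3cr1, the receptor of Cx3cl1, did not exceed 0.441 CPM. In the 6 comparisons with day 0, 1 to 3 of these 5 genes were higher and 0 to 2 lower (all genes 15.2 to 28.9% and 14.6 to 30.9%).

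Among interleukin ligands, Il33, an alarmin of the interleukin-1 family kept in the nucleus, rose by day 7 in each medium. It stood at 13.8 and 13 CPM at day 0. In DM1 it was at 29.7 and 33.5 at day 2 and 73.3 and 81.3 at day 7, in DM2 at 22.2 and 26.6 (day 2) and 241 and 275 (day 7), and in DM3 at 9.47 and 10.3 (day 2) and 260.3 and 239 (day 7). At day 2 the order was DM1, DM2, DM3 with no overlap, and at day 7 DM2 and DM3 overlapped, both above DM1. From day 2 to day 7 it rose 2.45-fold in DM1, 10.6-fold in DM2 and 25.2-fold in DM3 (edgeR adjusted p = 2.93e-06, 1.84e-09 and 8.12e-10). DM3 lay 3.2-fold below DM1 at day 2 and 3.23-fold above it at day 7, and the difference between the days was itself called (log2 3.37 ± 0.16, edgeR adjusted p = 8.61e-08). In DM3 at day 2 it was 1.36-fold below day 0 (edgeR adjusted p = 0.0064), a call lost without the 3 libraries of low pseudogene share (edgeR adjusted p = 0.0776). At day 7 DM3 and DM2 did not pass a test of their difference (log2 -0.05 ± 0.11, edgeR adjusted p = 0.735).

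Il6 rose in each medium and most in DM3. It was at 0.314 and 0.375 CPM at day 0, 0.588 and 1.35 (day 2) and 5.17 and 4.01 (day 7) in DM1, 2.8 and 2.86 (day 2) and 4.55 and 3.27 (day 7) in DM2, and 15 and 12.1 (day 2) and 22.2 and 20 (day 7) in DM3. Both DM3 libraries lay above every DM1 and DM2 library on each day. The rise over day 0 was 38.8-fold at day 2 and 60.4-fold at day 7 in DM3 (edgeR adjusted p = 1.77e-07 and 3.34e-08). At day 7 DM3 was 4.59-fold above DM1 and 5.39-fold above DM2 (edgeR adjusted p = 4.42e-05 and 1.49e-05). In DM1 at day 2 the 2.81-fold rise (edgeR adjusted p = 0.00988) was 1.69-fold and lost without DM1 replicate 2 (edgeR adjusted p = 0.316), and was also lost without day 0 replicate 1 (0.084) or with only these 2 groups fitted (0.0773).

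Il11, a ligand of the same family, moved apart from Il6. It was at 1.4 and 1.57 CPM at day 0, 4.03 and 3.77 at day 7 in DM2 and 0.634 and 0.903 at day 7 in DM3. It rose 2.63-fold over day 0 in DM2 at day 7 (edgeR adjusted p = 0.00101), where DM3 lay 5.04-fold below it (edgeR adjusted p = 3.04e-05). Related cytokines outside the name rule numbered 15, of which 8 were tested. Lif, which shares gp130, fell from 7.33 and 7.67 CPM at day 0 to 0.93 and 0.698 in DM3 at day 7 (9.17-fold, edgeR adjusted p = 2.72e-08), Csf1, a macrophage growth factor, fell from 196 and 175 to 52.1 and 53.9 (3.5-fold, 4.09e-09), and Tslp, which signals together with the interleukin-7 receptor, rose from 1.19 and 1.91 to 15 and 13.2 in DM1 at day 7 (9.07-fold, 1.41e-05). In DM3 at day 7, 2 of the 8 were higher and 3 lower than at day 0 (all genes 28.9 and 30.1%), and in DM2 at day 7, 2 and 5 (24.5 and 30.9%).

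In the interleukin-1 family, Il1b, the classic inflammatory ligand, had counts almost only in DM3 at day 7. Both libraries there held 4.65 and 3.04 CPM, and none of the other 12 exceeded 0.311. With 1 and 0 counts at day 0, the rise was 222-fold (95% counting interval 39.4 to 8830), with an edgeR adjusted p = 1.18e-05. Il1b passed the low-count filter only through DM3 at day 7, so its p-values here give no support for a difference. The fitted fold was 792 without day 0 replicate 1 and 96.8 without replicate 2. DM3 was 26.9-fold above its own day 2 and 37.9-fold above DM1 (edgeR adjusted p = 0.000117 and 7.34e-05). Its inhibitor Il1rn, a receptor antagonist, was at 3.07 and 3.17 CPM at day 0, 14.3 and 7.18 at day 7 in DM1 and 2.28 and 2.05 at day 7 in DM3. The 2 DM1 libraries lay apart from each other, but DM3 was 4.95-fold below DM1 (edgeR adjusted p = 3.30e-05). Il1a, the other ligand of that receptor, held 20 counts over the 14 libraries and was not tested.

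Il18, which promotes interferon gamma, stood at 3.87 and 4.87 CPM at day 0. In DM1 it was called higher at day 2, at 9.91 and 11.2, and at day 7, at 13.3 and 10.3, with no call between these days. It was also called higher than day 0 in DM3 at day 2 and lower in DM2 at day 7. The rise in DM1 at day 7 was 2.7-fold (edgeR adjusted p = 1.75e-05). On that day DM3, at 5.54 and 4.89, lay 2.26-fold below DM1 (edgeR adjusted p = 0.00011). Il18bp, the secreted protein that binds and blocks interleukin-18, went from 1.29 and 1.23 CPM at day 0 to 0.452 and 0.272 in DM2 at day 7, 3.44-fold lower (edgeR adjusted p = 0.00623), a call lost without DM2 replicate 2 (edgeR adjusted p = 0.0629). Il1f9 (interleukin-36 gamma) was at 0.209 and 0.375 CPM at day 0, 1.6 and 1.6 at day 2 in DM2 and 2.16 and 1.64 at day 7 in DM3 (5.41- and 6.4-fold, edgeR adjusted p = 0.00152 and 0.000524).

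Among other ligands, Il34, which binds the Csf1 receptor, went from 14.5 and 15.3 CPM at day 0 to 3.55 and 3.49 in DM3 at day 7 (4.23-fold lower, edgeR adjusted p = 5.86e-07), while DM1 stayed at 13.4 and 13.4 and was not called (edgeR adjusted p = 0.461). Il7, a growth factor of lymphocytes, stood at 0.837 and 1.16 CPM at day 0 and 0.0713 and 0.0835 in DM1 at day 7, a 12.3-fold fall (edgeR adjusted p = 0.000429). Il12a, a subunit of interleukin-12, rose from 0.0698 and 0.136 CPM to 1.76 and 2.06 in DM1 at day 2 (17.7-fold, edgeR adjusted p = 0.000471) and stood at 1.4 and 0.862 in DM3 at day 7. The partner subunit Il12b had 29 and 19 counts in the DM2 libraries of day 7 and 1 count in the other 12. Its rise over day 0 was at least 8.88-fold against a floor of 3 counts in each library (edgeR adjusted p = 0.00308). The DESeq2 Wald test did not call it (adjusted p = 0.163). Il12b passed the filter only through DM2 at day 7, so its p-value gives no support for a difference.

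Receptor chains split into some that rose in all 4 cocktail groups, such as Il6ra, Il6st and Il17rc, and others that fell in all 4, such as Il17rd, Il18rap and Il2rg. For interleukin-6, the specific chain Il6ra stood at 9.73 and 10.8 CPM at day 0, 13.6 and 14.3 (day 2) and 50.7 and 52.7 (day 7) in DM1, 33.3 and 38 (day 2) and 40.7 and 39.7 (day 7) in DM2, and 26.3 and 27.3 (day 2) and 27 and 28.7 (day 7) in DM3. Its peak was DM1 at day 7, unlike that of the ligand. It was 5.04-fold above day 0 there (edgeR adjusted p = 1.96e-09) and 2.72-fold in DM3 (edgeR adjusted p = 4.66e-08). DM3 lay 1.92-fold above DM1 at day 2 and 1.86-fold below it at day 7 (edgeR adjusted p = 7.83e-06 and 5.51e-06). The shared chain gp130 (Il6st) rose from 123 and 131 CPM to 312 and 333 in DM3 at day 7 (2.55-fold, edgeR adjusted p = 2.19e-07). Il11ra1, the chain for interleukin-11, was highest in DM1 at day 7 with 9.51 and 6.76 CPM, 4.4-fold above day 0 (edgeR adjusted p = 2.07e-05).

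Of the 23 listed genes of shared chains and the JAK-STAT pathway 22 were tested. In DM3 at day 7, 8 were higher and 5 lower than at day 0 (all genes 28.9 and 30.1%), and in DM2 at day 7, 10 and 8 (24.5 and 30.9%). Stat3, the main factor downstream of gp130, rose from 92.5 and 90.4 CPM at day 0 to 231 and 230.4 in DM1 at day 7 (2.53-fold, edgeR adjusted p = 1.02e-07). Its feedback inhibitor Socs3 stood at 28.6 and 26.6 CPM at day 0 and 124 and 118 at day 7 in DM3 (4.39-fold, 2.61e-08). Osmr, the oncostatin M receptor, was highest in DM2 at day 7, at 88.6 and 65.3 CPM against 14.3 and 14.8 at day 0. Csf2rb, the beta chain shared by interleukin-3, interleukin-5 and GM-CSF, rose 52.2-fold in that group, from 0.419 and 0.579 to 27.3 and 25.3 CPM (3.83e-09), while Cish, a STAT5 target, fell 28.8-fold there, from 3.42 and 3.47 to 0.0753 and 0.156 (1.53e-07). Il3ra, the alpha chain that pairs with Csf2rb, went from 4.47 and 3.88 CPM at day 0 to 7.2 and 7.26 in DM1 and 0.888 and 0.739 in DM3 at day 7, with DM3 8.85-fold below DM1 (edgeR adjusted p = 3.59e-07).

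Il2rb, the beta chain of the receptors for interleukin-2 and interleukin-15, parted DM2 and DM3 at day 7. It was at 0.628 and 0.545 CPM at day 0 and 1.43 and 0.825 in DM1 at day 2. At day 2 DM2 stood at 8.13 and 7.37 and DM3 at 6.47 and 7.45, a difference that was not called (log2 -0.15 ± 0.31, edgeR adjusted p = 0.768). At day 7 it stood at 3.6 and 7.76 in DM1, 0.226 and 0.35 in DM2 and 11.2 and 10.5 in DM3, with DM3 the high group. DM2 was not called against day 0 (log2 -1.02 ± 0.45, edgeR adjusted p = 0.0749). In DM2 it fell 26.5-fold between the days (edgeR adjusted p = 1.67e-06), and DM3 was 37-fold above DM2 at day 7 (edgeR adjusted p = 6.36e-07). The difference between DM3 and DM2 differed between the days by log2 5.37 ± 0.52 (edgeR adjusted p = 9.75e-06). Against day 0 the rise in DM3 at day 7 was 18.3-fold (edgeR adjusted p = 1.28e-06). In DM1 at day 7 it was 9.59-fold (edgeR adjusted p = 1.43e-05), 6.09-fold without DM1 replicate 2. The 1.91-fold difference between DM3 and DM1 at day 7 (edgeR adjusted p = 0.0286) was 3.01-fold without DM1 replicate 2 and was lost without DM1 replicate 1 (edgeR adjusted p = 0.212), without DM3 replicate 1 (0.112) or replicate 2 (0.0763), with only these groups fitted (0.0689) and under library totals alone (0.0836).

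The partner chains did not follow Il2rb in all groups. Il15ra shared its fall in DM2 between the days, but was also lower at day 7 than at day 2 in DM3, where Il2rb was not called. The common gamma chain Il2rg was highest at day 0 and in DM1 at day 2, where Il2rb was low, with 15.2 and 16.5 and with 22.2 and 22.7 CPM. At day 7 it stood at 7.62 and 5.43 in DM1, 4.22 and 4.4 in DM2 and 2.75 and 3.9 in DM3. It fell 4.76-fold from day 0 in DM3 at day 7 (edgeR adjusted p = 6.54e-07). Il15ra, which presents interleukin-15, stood at 1.15 and 1.06 CPM at day 0, 1.5 and 1.46 at day 7 in DM1 and 1.67 and 1.9 (day 2) and 0.38 and 0.534 (day 7) in DM3, and at 0.113 and 0.0389 at day 7 in DM2. In DM2 it fell 13-fold from day 2 to day 7 (edgeR adjusted p = 2.74e-05), 24.1-fold without DM2 day 7 replicate 1. The alpha chain Il2ra held 1 count over the 14 libraries and Il2 held 15. Il15 itself was highest in DM1 at day 7, at 1.82 and 2.05 CPM against 0.384 and 0.17 at day 0 (6.88-fold, edgeR adjusted p = 0.00608); the rise was 11-fold without day 0 replicate 1 and was lost without replicate 2 (edgeR adjusted p = 0.0585).

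**Figure D5:**
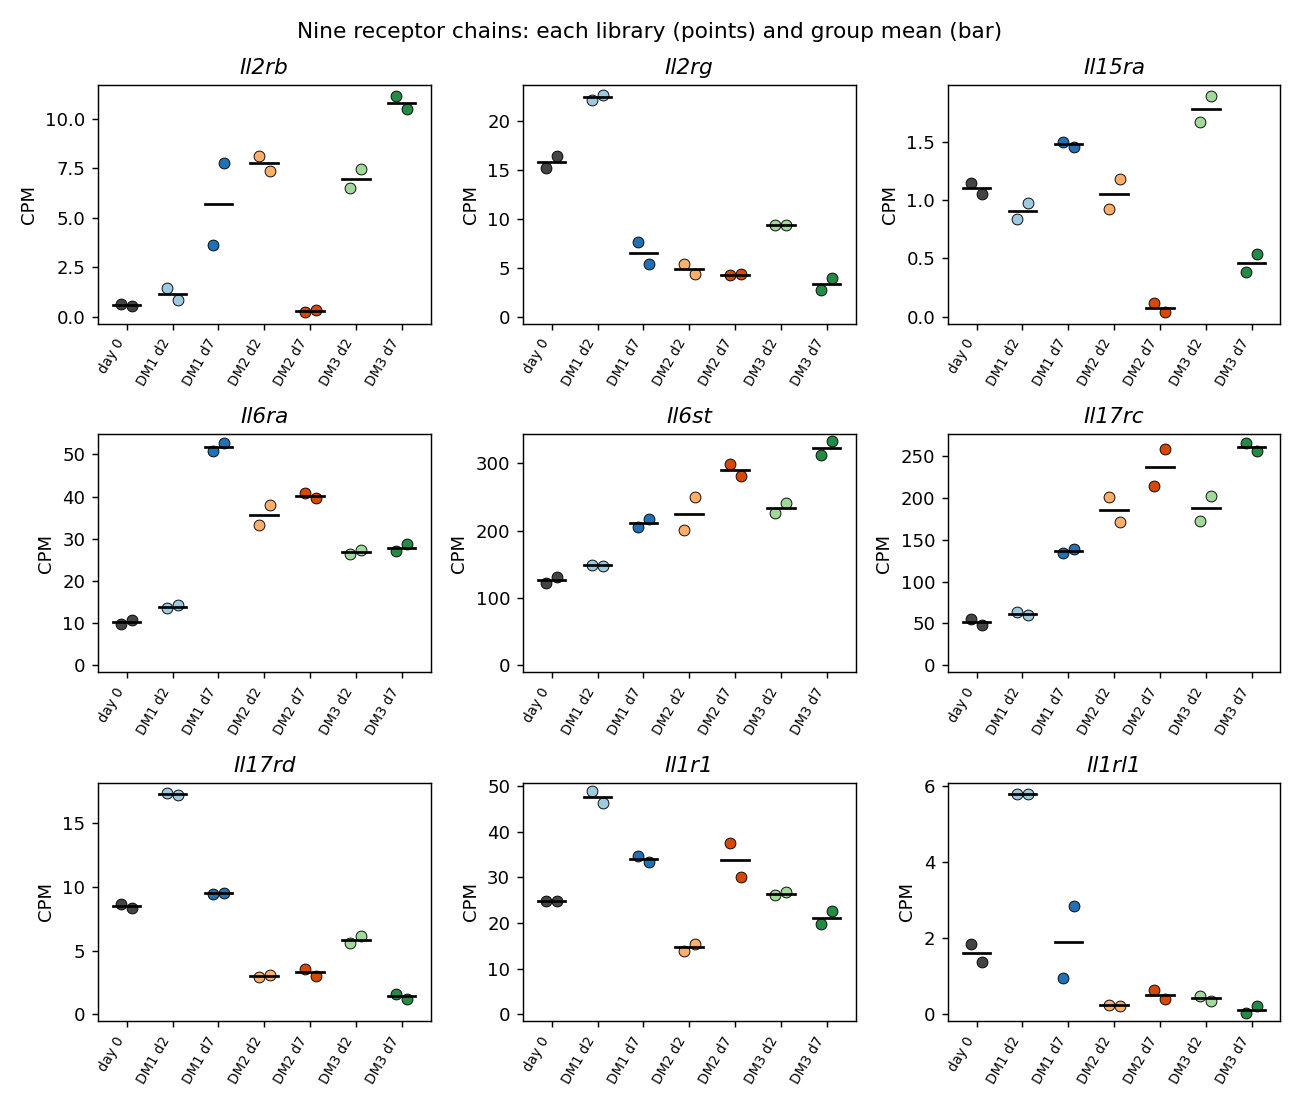
CPM of 9 receptor chains in each library (points) with the mean of the 2 libraries of a group (bars), on linear axes that differ between panels. Il2rb is low in DM2 at day 7 and high in DM3 at day 7, Il2rg is high in the day 0 and DM1 day 2 libraries, and Il17rc and Il6st are lowest in the same libraries.

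Of the receptors of the interleukin-1 family, Il1rap, Il1rl1 and Il18rap were called lower than day 0 in DM3 at both days. The day 2 call of Il1rl1 was lost without day 0 replicate 1 (edgeR adjusted p = 0.0552), without DM3 replicate 2 (0.06) and without all 3 low-pseudogene libraries (0.167). Il1r1 was not called there on either day (log2 0.09 ± 0.11 at day 2 and -0.23 ± 0.11 at day 7, edgeR adjusted p = 0.532 and 0.0915). Il1r1, Il1rl1 and Il18rap lie within 477.6 kb of chromosome 1 together with Il1r2, Il1rl2 and Il18r1, which had at most 7 counts each over the 14 libraries. Il1r1, the receptor of Il1b, was at 24.8 and 24.9 CPM at day 0. The day 2 libraries held 49 and 46.4 in DM1, 13.9 and 15.5 in DM2 and 26.2 and 26.7 in DM3, and those of day 7 held 37.5 and 30.1 in DM2 and 19.8 and 22.5 in DM3. The order of DM2 and DM3 turned between the days, with DM3 1.8-fold above at day 2 and 1.6-fold below at day 7 (edgeR adjusted p = 0.000331 and 0.000237). Il1rap, the accessory chain of the family, went from 22.5 and 24.2 CPM at day 0 to 9.55 and 10.3 in DM3 at day 7 (2.35-fold lower, edgeR adjusted p = 8.81e-07).

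Il1rl1 (ST2) is the receptor of Il33. It stood at 1.85 and 1.36 CPM at day 0 and 5.79 and 5.78 in DM1, 0.24 and 0.229 in DM2 and 0.484 and 0.358 in DM3 at day 2, and at 0.962 and 2.84 in DM1, 0.64 and 0.389 in DM2 and 0.0423 and 0.205 in DM3 at day 7, so DM2 and DM3 were under 1 CPM at day 2, when Il33 was low, and at day 7, when it was high. The gene count does not separate the membrane form from the secreted decoy form. Il1rl1 was 12.4-fold below day 0 in DM3 at day 7 (edgeR adjusted p = 0.000321), 7.66-fold without DM3 replicate 1 and 34.2-fold without replicate 2. Il18rap, the accessory chain for interleukin-18, fell from 5.13 and 4.46 CPM at day 0 to 0.296 and 0.411 in DM3 at day 7 (13.4-fold, edgeR adjusted p = 2.99e-06), while Il18r1, the chain it pairs with, was at 0 in all libraries.

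The interleukin-17 receptors went in opposite directions. Il17rc rose from 55.3 and 48.7 CPM at day 0 and 64.2 and 59.6 in DM1 at day 2 to 134 and 139 in DM1 at day 7, 201 and 171 (day 2) and 215 and 258 (day 7) in DM2, and 173 and 202 (day 2) and 266 and 256 (day 7) in DM3. Day 0 and DM1 at day 2 were the low groups, with no overlap with the rest. It was 5.02-fold above day 0 in DM3 at day 7 (edgeR adjusted p = 8.89e-09) and 3.03-fold above DM1 in DM3 at day 2 (edgeR adjusted p = 1.23e-06). Its partner Il17ra, which with Il17rc forms the receptor for interleukins 17A and 17F, went from 52.5 and 47 CPM at day 0 to 22.9 and 22.4 in DM3 at day 7 (2.2-fold lower, edgeR adjusted p = 3.03e-07). Il17rd (Sef), also known as an inhibitor of FGF signalling, was at 8.69 and 8.38 CPM at day 0, 17.4 and 17.3 at day 2 in DM1 and 1.56 and 1.23 at day 7 in DM3 (6.09-fold below day 0, edgeR adjusted p = 2.23e-08). Il17re, at GRCm38 chr6:113458484-113470758, lies just before Il17rc, at chr6:113471427-113483140 on the same chromosome. It stood at 0.676 and 0.986 CPM in DM3 at day 7 against 0.14 and 0.136 at day 0 (5.86-fold, edgeR adjusted p = 0.00105). The ligands Il17a, Il17c and Il17f held 0, 5 and 6 counts.

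Of the receptors for interleukins 4 and 13, Il4ra was at 48.8 and 45.4 CPM at day 0. At day 7 the libraries held 70.2 and 69.4 in DM1, 26.4 and 27 in DM2 and 65.1 and 68.4 in DM3, and DM3 lay 2.5-fold above DM2 (edgeR adjusted p = 1.08e-07). Its partner Il13ra1 rose in each medium by day 7, to 111 and 118, 129.9 and 107 and 103 and 101 CPM in DM1, DM2 and DM3 from 59.4 and 57 at day 0 (edgeR adjusted p = 6.31e-06, 3.39e-06 and 2.11e-05). Il13ra2, a decoy for interleukin-13, stood at 0.0698 and 0.136 CPM at day 0 and 2.24 and 1.46 in DM1 at day 7, 17.2-fold higher (edgeR adjusted p = 8.83e-05). Il4 and Il13 themselves were at 0 in all libraries. Il12rb1, a chain for interleukins 12 and 23, fell in DM2 from 5.76 and 6.34 CPM at day 0 to 1.35 and 1.95 at day 7 (3.66-fold, edgeR adjusted p = 9.39e-06), and Il27ra, at 0.733 and 0.579 CPM at day 0, had no count in DM3 at day 7, at least 5.24-fold lower against the floor of 3 counts in each library (edgeR adjusted p = 0.000405).

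The NF-kappaB pathway, through which the interleukin-1 and interleukin-17 receptors act, held 30 tested genes of 31 listed. Against day 0, DM1 had 5 of them higher and 2 lower at day 2 (all genes 15.2 and 14.6%) and 6 and 10 at day 7 (27.7 and 25.8%). DM2 had 5 and 18 at day 2 (all genes 23.5 and 26.2%) and 10 and 12 at day 7 (24.5 and 30.9%). DM3 had 3 and 10 at day 2 (25.5 and 25.4%) and 7 and 13 at day 7 (28.9 and 30.1%). The list's median log2 fold change lay between -0.45 (DM2 at day 2) and 0.00 (DM1 at day 2), beside 0.01 and 0.00 over all genes. From day 2 to day 7 in DM2, 12 of the 30 rose and 6 fell (all genes 25.4 and 29.4%). The 2 genes named next are both falls and do not stand for the list. Tnfaip3 (A20), its feedback inhibitor, fell 5.67-fold in DM2 at day 7, from 93.5 and 86.1 to 15.6 and 16.1 CPM (edgeR adjusted p = 3.50e-09). The adaptor Traf1 fell 14.8-fold in DM3 at day 7, from 14.1 and 11.9 to 0.93 and 0.821 CPM (edgeR adjusted p = 9.21e-09).

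Per length, on CPM per kb of merged exons, Il17rc was the most abundant member at day 0, with 19.5 ± 1.74 (mean ± SD, n = 2), followed by Il13ra1 with 15.7 ± 0.468 and Il6st with 11.4 ± 0.512. At day 7 Il33 reached 89.5 ± 8.41 in DM2 and 86.4 ± 5.31 in DM3, beside 88.4 ± 11.4 and 97.6 ± 2.55 for Il17rc, so that a ligand and a receptor chain shared the top of the list. Il6 stood at 8.69 ± 0.639 in DM3 at day 7. All members together took 538 to 547 CPM at day 0. At day 7 they took 943.6 and 969.4 CPM in DM1 and 1183 to 1207 CPM in DM2 and DM3. These sums are set by the most abundant members and show no rise of the class. Against day 0, day 7 found 19 members higher and 16 lower in DM2, and 19 and 18 in DM3. In DM3 at day 7, Il33 stood at 260.3 and 239 CPM, Il17rc at 266 and 256, and Il6st at 312 and 333. At day 0 they stood at 13.8 and 13, 55.3 and 48.7, and 123 and 131 CPM.

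Between the days, DM1 went on gaining members, with 18 of 47 higher and 11 lower at day 7 than at day 2 against 16.8 and 17.5% of all genes (34.3% either way). In DM2 they were 13 and 12 (25.4 and 29.4%, 54.8% either way; under library totals alone 9 and 17, 16.7 and 41%), and in DM3 9 and 18 (22.6 and 25.3%, 47.9% either way; under library totals alone 8 and 20, 15.6 and 35%). In DM1 the count without 1 library was 19 to 25, against 29.

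Adding the cocktail to 2% HS (DM3 against DM1) gave 12 higher and 20 lower members at day 2 (all genes 17.6 and 19.4%, 37% either way) and 10 and 25 at day 7 (22.7 and 25.1%, 47.7% either way; under library totals alone 8 and 28, 13.6 and 36.2%). The members' median log2 difference at day 7 was -0.94, beside 0.00 over all genes (-1.18 and -0.23 under library totals alone). Among the 14 receptor chains lower in DM3 at day 7, Il18rap was 8.4-fold lower (edgeR adjusted p = 3.31e-05) and Il17rd 6.78-fold (edgeR adjusted p = 5.02e-08). DM3 against DM2 gave 6 higher and 5 lower at day 2 (all genes 9.98 and 6.31%, 16.3% either way; under library totals alone 5 and 5, 8.42 and 8.15%) and 11 and 19 at day 7 (27.5 and 25.2%, 52.7% either way). The day 2 count fell from 11 to 4 with only these groups fitted, to 7 without the 3 libraries of low pseudogene share, and lay at 7 to 13 without 1 library. Among the 11, Cx3cl1 was 2.09-fold lower in DM3 (edgeR adjusted p = 0.000204), Il33 2.47-fold lower (edgeR adjusted p = 1.62e-05) and Il6 4.78-fold higher (edgeR adjusted p = 0.000252).

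The difference between DM3 and DM1 changed between the days for 20 members, 4 upward and 16 downward (all genes 16.3 and 18.7%, 34.9% either way; under library totals alone 3 and 18, 11.3 and 25.6%), and that between DM3 and DM2 for 21, 7 upward and 14 downward (20 and 19.8%, 39.8% either way). Il33 and Il4ra were among the 4, with log2 3.37 ± 0.16 and 0.89 ± 0.12 (edgeR adjusted p = 8.61e-08 and 0.00016). Il6ra, Il1rn and Ccl9 were among the 16, with log2 -1.84 ± 0.13, -2.72 ± 0.39 and -2.72 ± 0.27 (1.16e-06, 0.000244 and 1.77e-05).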

How the data were processed

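Poly(A) RNA of C2C12 cells was sequenced in 14 libraries, single-end with a strand-specific kit per the labels' protocols. The authors deposited expected counts per gene, which RSEM estimates and which need not be whole (not normalized). STAR 2.5.1b, RSEM 1.2.31 and the build GRCm38.p5 are named in the submitters' processing notes, and Gencode vM12 in the series' design text. Counts were rounded to whole numbers. All columns matched a sample by name. Genes were kept with filterByExpr by group (15973 of 49671), scaled by TMM and fitted with edgeR 4.0.16 (R 4.3.3, quasi-likelihood, robust) as 1 model over the 7 groups (7 residual degrees of freedom). P-values were adjusted by Benjamini-Hochberg over all tested genes, with calls at 0.05. The fit was tested on simulated data. Expected counts split between near-identical copies are estimates.

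The members and lists were chosen with earlier results of these data known. Members named with values were Il2rb, those called in at least 1 comparison with a mean of at least 1 CPM in a group (at most 40, by range), and in each comparison the 4 largest rises and 4 largest falls. Of each other list, at most 3 called genes per comparison were open to naming. Members at 0 or under the filter were named without a test. Where a group held 1 to 3 counts, the ratio of counts is given with an exact 95% interval, which covers counting error only. At 0 counts the bound uses 3 counts per library (0.102 to 0.132 CPM). Positions and exon lengths came from Gencode vM21 (GRCm38), promoter windows from RefSeq (GRCm38.p6). The alternatives were DESeq2 1.42.0 size factors and Wald test, library totals, no filter, only the groups compared, a replicate block, and leaving libraries out.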

Additional observations from a re-analysis of the deposited data

Results flagged for a closer look

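For 8 genes the difference between media was called at day 2 and at day 7 in opposite directions, and the test of the change itself was called (edgeR adjusted p, log2 values ± SE). For DM3 minus DM1, Il33 went from -1.68 at day 2 to 1.69 at day 7, a change of 3.37 ± 0.16 (edgeR adjusted p = 8.61e-08). The other 4 genes turned from higher to lower in DM3. Ccl9 changed by -2.72 ± 0.27 (from 0.78 to -1.94; edgeR adjusted p = 1.77e-05), Cxcl1 by -2.23 ± 0.31 (from 1.55 to -0.68; 0.00018), Il15ra by -2.65 ± 0.49 (from 0.97 to -1.68; 0.00141) and Il6ra by -1.84 ± 0.13 (from 0.94 to -0.89; 1.16e-06). For DM3 minus DM2, 3 receptor chains turned from higher to lower in DM3. Il17ra changed by -1.24 ± 0.12 (from 0.32 to -0.92, edgeR adjusted p = 1.18e-05), Il17rd by -2.20 ± 0.21 (from 0.97 to -1.23; 7.54e-06) and Il1r1 by -1.52 ± 0.16 (from 0.85 to -0.67; 1.38e-05). Day 2 and day 7 libraries are separate samples, so these are differences between groups and follow no culture over time.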

How the results depend on the processing

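No called log2 fold change of a named member reversed its direction under the alternatives run. The balance of members higher and lower did turn under library totals alone, at day 7 against day 0 in DM2 (19 and 16 to 18 and 20) and DM3 (19 and 18 to 18 and 21), and against day 2 in DM2 (13 and 12 to 9 and 17). The 11 members called between DM3 and DM2 at day 2 became 4 with only those groups fitted, 7 without the 3 libraries of low pseudogene share, and 7 to 13 without 1 library. The 29 called between day 7 and day 2 of DM1 became 19 to 25 without 1 library. All other counts stayed within 1.5 times under the alternatives run. Of 414 calls of named members, 2 were lost with DESeq2 size factors, 38 with the DESeq2 Wald test, 16 with library totals alone, 16 without the filter and 10 with a replicate block. With only the groups compared 41 calls were lost and 360 kept. Without the 3 libraries of low pseudogene share 53 were lost and 272 kept, and of the refits without 1 library 240 lost a call and 1580 kept it. With the replicate block the DM3 against DM2 count at day 2 was 9 against 11. The deviations of same-numbered libraries correlated at -0.747 (day 0 with DM3 at day 2) to 0.678 (day 0 with DM1 at day 2), and in 3 of 21 pairs of groups above 0.1. Both extremes join groups that hold a library of low pseudogene share. So these correlations cannot show whether replicate numbers pair the cultures. With 2 libraries a group, genes under about 1 CPM carry the widest errors.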
